A study of Mus musculus with 8 samples.

Results

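Inscuteable (Insc) and 9 genes whose products act with it in orienting the mitotic spindle, namely Gpsm1, Gpsm2, Numa1, Pard3, Pard6a, Pard6b, Pard6g, Prkci and Llgl1, are described here, 10 of the 50600 genes that each comparison table lists. They were found by symbol, each symbol had 1 row, and all 10 were among the 14830 genes with an adjusted p in the DMSO and I-CBP112 tables. Insc was chosen by its log2 fold changes with DMSO and I-CBP112 in these tables, so its values are given as a description with no test. The other 9 were chosen for their known roles. RNA came from embryonic fibroblasts of C57BL/6 mice. All groups had received retroviruses for the GHMT factors (Gata4, Hand2, Mef2c and Tbx5), which turn fibroblasts towards heart muscle cells, and no group without the viruses was analysed here. Cells were treated for 7 days with 1% DMSO, 5 µM I-CBP112, a ligand of the CBP and EP300 bromodomains, 5 µM C646, an inhibitor of the acetyltransferase activity of the same proteins, or 0.1% ethanol, with 2 libraries each and 8 in all. No source used here names the solvent of either inhibitor, and the effects of solvent and inhibitor cannot be told apart.

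A dividing cell turns its spindle by pulling on astral microtubules from the cell cortex. In mammals, Gαi proteins at the membrane hold LGN (the product of Gpsm2) or AGS3 (Gpsm1), LGN holds NuMA (Numa1), and NuMA recruits the motor dynein. Insc links this machinery to the polarity complex of PAR3, PAR6 and atypical protein kinase C, and competes with NuMA for the same domain of LGN. It is best known from asymmetric divisions of fly neuroblasts and of mouse epidermal and neural progenitors.

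The start of Insc is shown because it is the member whose RNA differed most, and that of Gpsm2 because its product binds Insc directly and its RNA did not pass the test. Each window runs from 250 bases before the transcription start to 50 after it, 300 bases in all, on GRCm38.p6 as given by RefSeq. The Insc window is chr7:114745516-114745815 on the plus strand and the Gpsm2 window chr3:108722250-108722549 on the minus strand. The Insc window lies inside the span that GENCODE gives the gene, which has 9 annotated transcripts and opens at 114743694, so it shows 1 start and not the first, and which start these cells used is not known. Capitals mark every match on either strand to a motif that was searched.
Insc: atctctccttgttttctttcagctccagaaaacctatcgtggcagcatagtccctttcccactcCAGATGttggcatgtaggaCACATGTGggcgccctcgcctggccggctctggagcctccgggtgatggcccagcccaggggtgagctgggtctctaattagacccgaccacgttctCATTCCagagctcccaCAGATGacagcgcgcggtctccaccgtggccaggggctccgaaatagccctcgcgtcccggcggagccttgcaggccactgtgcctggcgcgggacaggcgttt
Gpsm2: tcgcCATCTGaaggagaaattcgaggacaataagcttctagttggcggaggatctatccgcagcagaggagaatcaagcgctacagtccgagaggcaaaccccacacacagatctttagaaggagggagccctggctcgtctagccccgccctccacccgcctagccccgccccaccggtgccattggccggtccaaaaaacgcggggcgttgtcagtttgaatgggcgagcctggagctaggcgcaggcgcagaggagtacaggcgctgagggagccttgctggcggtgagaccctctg
The matches are E-boxes (CANNTG, which HAND2 and other basic helix-loop-helix factors can bind) and 1 TEAD site (GGAATG, here read on the other strand). Insc held 4 E-boxes, starting 186, 167, 165 and 54 bases before the transcription start, with the middle pair overlapping, and its TEAD site started 70 bases before it. Gpsm2 held 1 E-box, 246 bases before its start, and no TEAD site. Of the 32851 promoter windows of 27025 genes, 72.3% held an E-box and 14.7% a TEAD site. A GATA site (AGATAA, in 11.2% of windows), the MEF2 consensus (3.69%), a T-box site (AGGTGT, 13.7%) and a TATA box (TATAAA, 13.6%) were not among the letters of either window. Insc had 19 CpG and a GC content of 62.0%, and Gpsm2 had 20 CpG and 61.0%, against medians of 7 CpG and 52.7% over all windows. These matches describe the letters of the windows and show no binding.

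Across the study, the 8 fibroblast markers chosen to check the cells were all present, and their summed level was 613461 normalised counts with DMSO, 551447 with I-CBP112, 916898 with C646 and 926876 with ethanol. The authors' deposited table has 6 of the 8 lower with DMSO, 5 lower under I-CBP112, and 0 changed under C646, beside 7.90% and 5.25% of all tested genes lower with DMSO and I-CBP112. The 8 cardiac muscle markers summed to 323438 with DMSO, 319113 with I-CBP112, 119197 with C646 and 117080 with ethanol. All 8 were higher with DMSO and with I-CBP112 in the authors' deposited table, and 0 with C646, beside 8.07% and 4.65% of all tested genes higher with DMSO and I-CBP112. In bulk RNA fewer cells of a type and less RNA per cell cannot be told apart. Levels given for single groups are normalised counts rebuilt from the mean over all libraries and the 3 fold changes, with a 95% interval from the dispersion behind the standard errors (SE). Values of single libraries are not used here, because the tables hold none.

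Insc RNA was almost absent after DMSO or I-CBP112 and stood near the ethanol level after C646. The rebuilt level was 18.2 normalised counts with DMSO (95% interval 12.1 to 27.3), 18.7 with I-CBP112 (12.5 to 27.9), 311 with C646 (241 to 403) and 319.5 with ethanol (247 to 413). The intervals of DMSO and I-CBP112 lay far below those of C646 and ethanol, and within each of these pairs the intervals overlapped almost wholly. In the authors' deposited table the log2 fold change of Insc was -4.13 ± 0.36 (SE, 2 libraries a group) with DMSO, a level 17.5 times lower than with ethanol (95% interval 10.7 to 28.7). With I-CBP112 it was -4.10 ± 0.34 in the authors' deposited table, 17.1 times lower (10.8 to 27.1). With C646 the authors' deposited table gave -0.04 ± 0.28, with an interval from -0.58 to 0.50 on the log2 scale. The log2 difference between I-CBP112 and DMSO was 0.04 ± 0.42, so the interval, -0.79 to 0.86, still leaves room for a difference between them of over 1.5-fold either way. The I-CBP112 cells and the C646 cells differed by -4.06 ± 0.35 on the log2 scale, and the C646 cells and the DMSO cells by 4.10 ± 0.35.

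**Figure D1:**
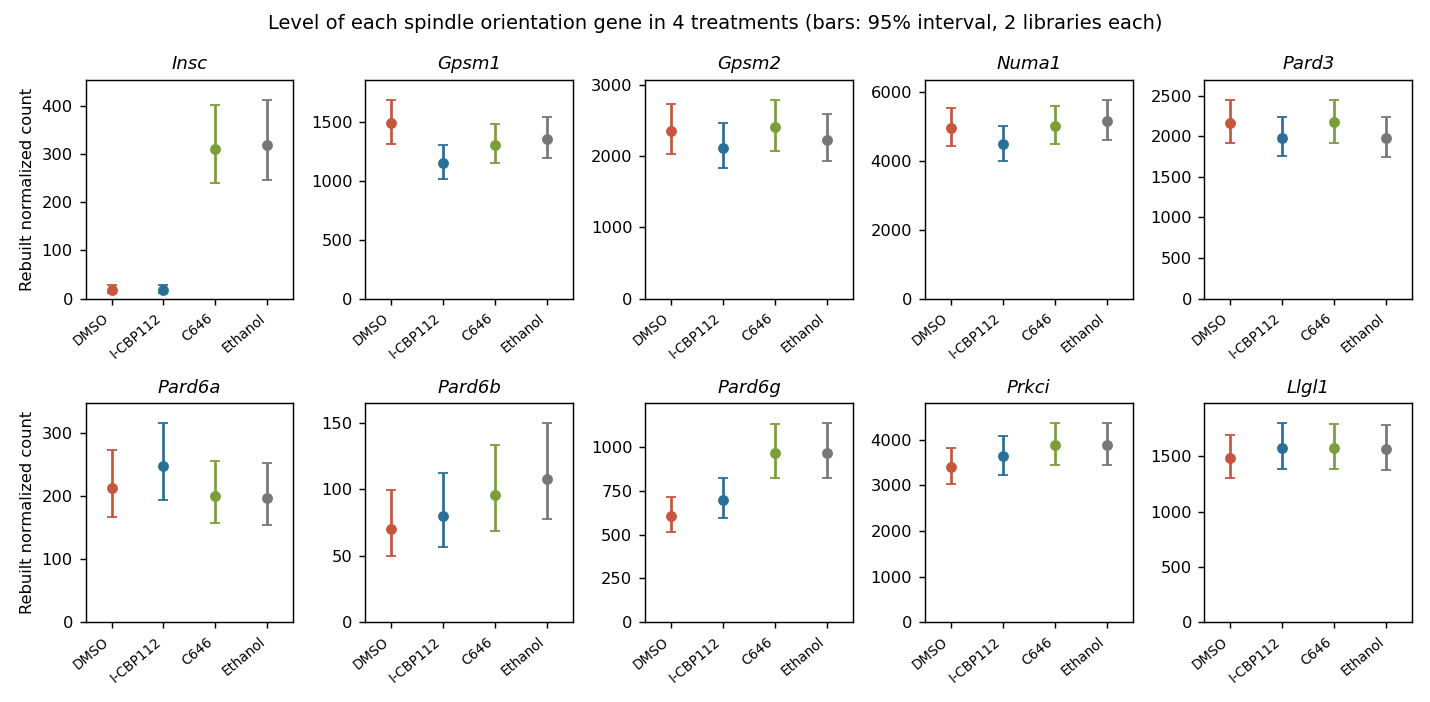
Rebuilt normalised counts (vertical axis, linear, from 0, with its own range for each gene) of the 10 spindle orientation genes with DMSO, I-CBP112, C646 and ethanol; points are group levels of 2 libraries and bars 95% intervals. Insc stands at 18.2 and 18.7 with DMSO and I-CBP112 and at 311 and 319.5 with C646 and ethanol, and Pard6g at 606 and 698 against 963 and 968.

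Among the 14830 tested genes, 3 had a lower fold change than Insc with DMSO in the authors' deposited table (Angpt4, Gm2260 and Gm10925) and 1 with I-CBP112 (Gm24924). With C646, 5017 genes had a lower one, 33.8% of those tested. Per kilobase of merged exons, which allows genes to be compared, Insc had 4.89 normalised counts with DMSO, 5.01 with I-CBP112, 83.6 with C646 and 85.8 with ethanol. Pard6b, the other member with little RNA, had 20.7 with DMSO, 23.4 with I-CBP112, 28.1 with C646 and 31.6 with ethanol on the same scale. Insc was therefore the lowest of the 10 genes per length with DMSO and I-CBP112 and the second lowest with C646 and ethanol. The counts are totals over the gene, which has 9 annotated transcripts, so which of them were lost is not known. The only other gene annotated within Insc, the small nucleolar RNA Gm24982, had a mean of 0.265 normalised counts.

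Markers of other cell types that could carry Insc were compared with it. In mouse skin Insc is known from basal epidermal cells, and the basal keratin Krt14 had 5.28 normalised counts with DMSO, 5.86 with I-CBP112, 47.6 with C646 and 55.1 with ethanol. In log2 fold change, the authors' deposited table puts it at -3.38 ± 0.72 with DMSO (adjusted p = 5.97e-05) and -3.23 ± 0.69 with I-CBP112 (adjusted p = 8.84e-05). All 6 epithelial markers together summed to 40.2 normalised counts with DMSO, 40.7 with I-CBP112, 116 with C646 and 118 with ethanol. Of the 6, the defining markers Epcam, Krt5 and Cdh1 had means under 10 normalised counts, and Krt14 was the 1 tested. The mean of Krt14, 28.5, was just above the lowest tested mean of 26.1. It passed that filter through its counts with C646 and ethanol, so its adjusted p is given as a description only. Krt8, with a mean of 24.5, was in the authors' deposited table at -0.10 ± 0.63 with DMSO and -1.33 ± 0.67 with I-CBP112. Krt18, with a mean of 20.1, was at -2.36 ± 0.83 and -0.27 ± 0.71 in the same order. Neither had an adjusted p. Neural progenitor and neuron markers summed to 4238 with DMSO, 6849 with I-CBP112, 5027 with C646 and 5084 with ethanol, with 2 of 6 (Sox2 and Rbfox3) under 10. Map2 and Tubb3, with means of 3547 and 1618, made up most of these sums. In the authors' deposited table Nes was at -0.77 ± 0.35 with DMSO and -0.43 ± 0.34 with I-CBP112. Map2 was at -0.33 ± 0.15 and 0.38 ± 0.15 in the same order, and Tubb3 at -0.09 ± 0.22 and 0.60 ± 0.22. Of the 3 tested, 0 passed with either, beside 16.0% and 9.90% of all tested genes. Macrophage markers, 5 genes, summed to 919 with DMSO, 811 with I-CBP112, 973 with C646 and 1031 with ethanol, and 2 of 4 tested were lower with I-CBP112 (0 with no filter on low counts), beside 5.25% of all tested genes. Endothelial markers, 4 genes with Cdh5 and Tie1 under 10, summed to 396 with DMSO, 413 with I-CBP112, 543 with C646 and 558 with ethanol. Kdr, with a mean of 450, made up most of these sums and was the 1 tested. In the authors' deposited table Kdr did not pass, at -0.52 ± 0.21 with DMSO (adjusted p = 0.0753) and -0.42 ± 0.21 with I-CBP112 (adjusted p = 0.25). The part of these cells and of the fibroblast markers in the Insc values was not tested.

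The genes whose pattern was most like that of Insc were sought among 13308 genes with a mean of 50 or more normalised counts, by the straight-line distance over the 3 log2 fold changes. The nearest was the microfibril protein Mfap4, at a distance of 1.69, followed by the cartilage proteoglycan Epyc at 1.72, the lipid transporter Mfsd2a at 1.77, the water channel Aqp1 at 1.86 and the noradrenaline transporter Slc6a2 at 2.11. Mfap4 had 344 normalised counts with DMSO, 541 with I-CBP112, 3046 with C646 and 3360 with ethanol. Slc6a2 had 40.3 with DMSO, 65.4 with I-CBP112, 302 with C646 and 324 with ethanol. In the authors' deposited table the 5 lay between -3.29 and -3.01 with DMSO and between -2.78 and -2.31 with I-CBP112. Of the 13308 genes, 1 was lower than Insc with DMSO and 0 with I-CBP112. A smaller loss in the 5 than in Insc was thus largely fixed by the choice of Insc. Without the minimum count, a choice made after seeing the data, the angiopoietin Angpt4 came first at a distance of 0.50 and Krt14 second at 1.16, with means of 27.9 and 28.5 normalised counts. A distance of 0 would be an equal pattern, and the 3 fold changes share the ethanol libraries.

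The tested genes on either side of Insc were set beside it. Insc spans 114743694 to 114850383 on chromosome 7 of GRCm38, on the plus strand, and the 6 tested genes on each side reach from 37.5 kb to 1487 kb away. Of these 12, the authors' deposited table has 1 lower and 0 higher with DMSO, beside 16.0% of all tested genes called in that comparison, with a median log2 fold change of -0.13. With I-CBP112 it has 2 lower and 0 higher of 12, beside 9.90% of all tested genes, with a median of -0.02. Plekha7, a protein of epithelial junctions 1273 kb past the end of Insc, had 702 normalised counts with DMSO, 899 with I-CBP112, 1463 with C646 and 1530 with ethanol. The authors' deposited table gives log2 fold changes of -1.12 ± 0.18 with DMSO (adjusted p = 1.45e-08) and -0.77 ± 0.18 with I-CBP112 (adjusted p = 0.000429). The phosphodiesterase gene Pde3b, 204 kb before Insc, was, by the authors' deposited table, at -0.49 ± 0.15 with I-CBP112 (adjusted p = 0.0184). The nearest tested gene, the pseudogene Gm15500, 37.5 kb before Insc, was, by the authors' deposited table, at -0.04 ± 0.16 with DMSO (adjusted p = 0.92) and 0.12 ± 0.16 with I-CBP112 (adjusted p = 0.82). The next on the other side, the transcription factor gene Sox6 at 620 kb, was at -0.11 ± 0.24 with DMSO (adjusted p = 0.83) and -0.61 ± 0.24 with I-CBP112 (adjusted p = 0.0994) in the authors' deposited table. With C646 the 12 genes lay between -0.45 and 0.26 in the authors' deposited table, and none passed.

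**Figure D2:**
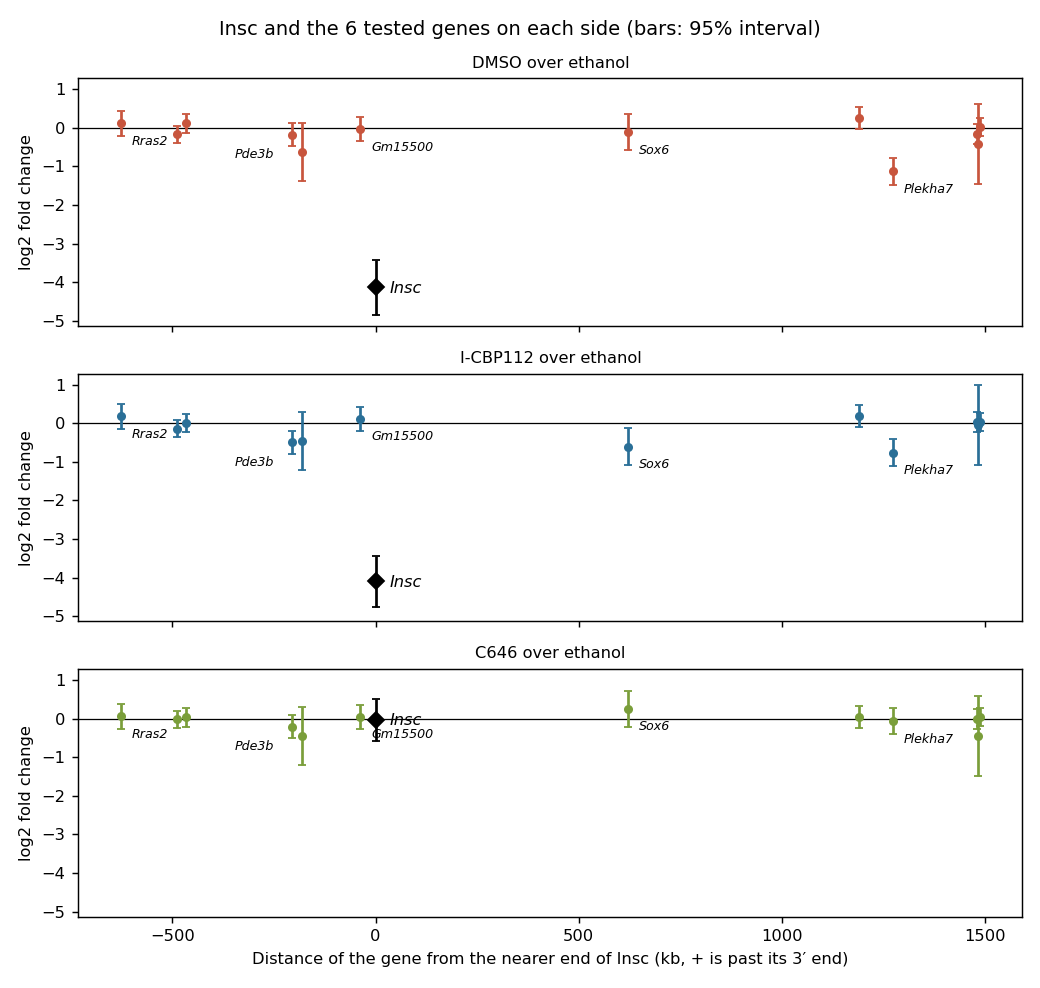
Log2 fold change over ethanol (vertical axis) of Insc (black diamond) and of the 6 tested genes on each side (coloured points) against their distance from Insc in kb (horizontal axis), for DMSO, I-CBP112 and C646 from top to bottom; bars are 95% intervals. Insc stands at -4.13 and -4.10 in the upper panels, and Plekha7, at -1.12 and -0.77, is the lowest of its neighbours there.

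Of the 10 members, 2 passed the authors' DESeq2 test (adjusted p below 0.05) with DMSO and 2 with I-CBP112, all of them lower: Insc, which was picked for it, and Pard6g. Among the 9 others that is 1 of 9 in each comparison, beside 7.90% of all tested genes lower with DMSO and 5.25% lower with I-CBP112. With C646, 0 of 10 passed the DESeq2 test, beside 0.00584% of 34250 genes called there. In the same comparison 0 of 10 had an unadjusted p below 0.05, beside 111 of the 14830 tested genes. The median log2 fold change of the 9 genes other than Insc was -0.06 with DMSO, beside 0.03 over all tested genes. It was -0.09 with I-CBP112, beside 0.01, and 0.00 for C646, beside 0.00. All comparisons share the ethanol libraries. Had each p come from a t distribution (4 degrees of freedom), 0 of 10 would have passed in any comparison.

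**Figure D3:**
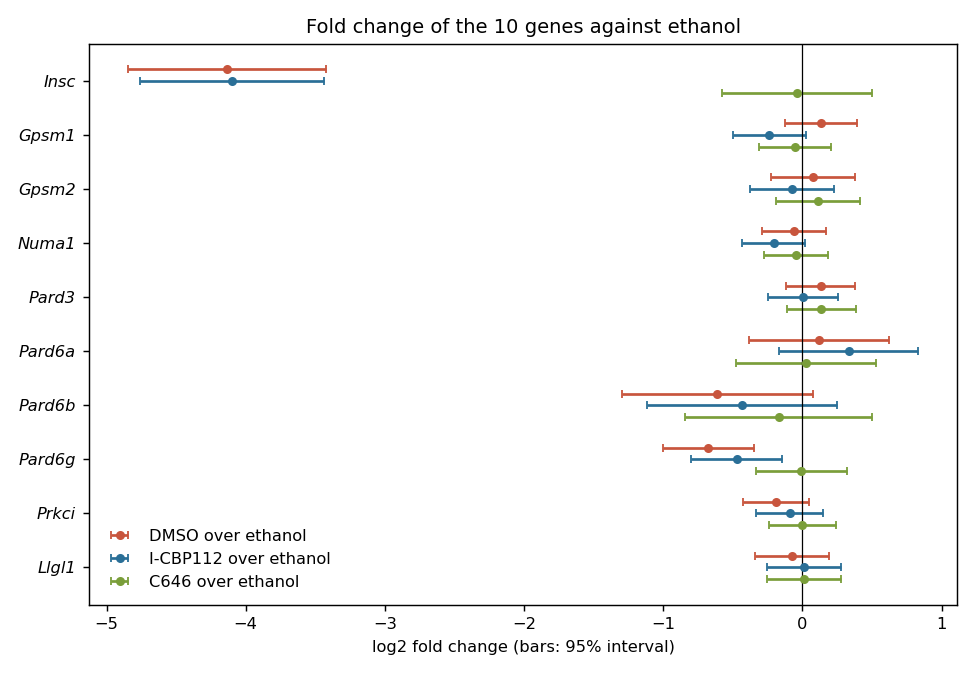
Log2 fold change over ethanol (horizontal axis) of the 10 genes with DMSO, I-CBP112 and C646; points are the authors' values and bars 95% intervals. Insc lies at -4.13 and -4.10 with DMSO and I-CBP112, Pard6g at -0.68 and -0.47, and the intervals of the other 8 genes include 0 in each comparison.

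Of the machinery at the cortex that Insc links to polarity, Gpsm2, Numa1 and Gpsm1 did not pass the test in any comparison with ethanol. On GRCm38, Gpsm2 (chromosome 3, 108678638 to 108722309, minus strand), which encodes LGN, had 2356 normalised counts with DMSO, 2118 with I-CBP112, 2407 with C646 and 2232 with ethanol. On the log2 scale it stood, by the authors' deposited table, at 0.08 ± 0.15 with DMSO (adjusted p = 0.82), -0.08 ± 0.15 with I-CBP112 (adjusted p = 0.90) and 0.11 ± 0.15 with C646 (adjusted p = 1). The intervals, -0.22 to 0.38 with DMSO and -0.38 to 0.23 with I-CBP112, do not reach a 2-fold difference either way. Numa1 (chromosome 7, 101934111 to 102014964, plus strand), the dynein adaptor that competes with Insc for LGN, had 4955 normalised counts with DMSO, 4472 with I-CBP112, 5002 with C646 and 5162 with ethanol. In the authors' deposited table its largest difference was -0.21 ± 0.12 with I-CBP112 (adjusted p = 0.34). Gpsm1 (chromosome 2, 26315515 to 26348237, plus strand), which encodes AGS3, the paralog of LGN, had 1492 normalised counts with DMSO, 1152 with I-CBP112, 1307 with C646 and 1357 with ethanol. It lay on opposite sides of ethanol with the first 2 treatments in the authors' deposited table, at 0.14 ± 0.13 with DMSO (adjusted p = 0.58) and -0.24 ± 0.13 with I-CBP112 (adjusted p = 0.33). A few exon bases of these genes also belong to a gene on the other strand, namely 203 bases of Gpsm2 with Clcc1, 117 of Gpsm1 with Dnlz and 80 of Numa1 with Il18bp, between 1.01% and 5.19% of the merged exons. No source used here says whether counting used the strand.

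In the polarity complex, 1 of the PAR6 genes was lower with DMSO and I-CBP112. Pard6g (chromosome 18, 80046890 to 80119639, plus strand) had 606 normalised counts with DMSO (95% interval 515 to 713), 698 with I-CBP112 (594 to 820), 963 with C646 (821 to 1130) and 968 with ethanol (825 to 1135). The DMSO and I-CBP112 intervals lay below those of C646 and ethanol. Its log2 fold change in the authors' deposited table was -0.68 ± 0.17 with DMSO (adjusted p = 0.000868), a level 1.6 times lower than with ethanol. With I-CBP112 the authors' deposited table has -0.47 ± 0.17 (adjusted p = 0.0487), 1.39 times lower, which did not pass when groups were scaled to equal totals (adjusted p = 0.064) or with no filter on low counts (adjusted p = 0.11). With C646 the authors' deposited table has it at -0.01 ± 0.17 (adjusted p = 1). Pard6b (chromosome 2, 168081004 to 168101203, plus strand), a paralog with few counts, had 70.3 normalised counts with DMSO, 79.7 with I-CBP112, 95.5 with C646 and 108 with ethanol, in the same order. The log2 values of the authors' deposited table, -0.61 ± 0.35 with DMSO (adjusted p = 0.26) and -0.43 ± 0.35 with I-CBP112 (adjusted p = 0.60), did not pass. Pard6a (chromosome 8, 105701148 to 105703496, plus strand), the remaining paralog, had 214 normalised counts with DMSO, 248 with I-CBP112, 201 with C646 and 197 with ethanol, with intervals that overlap throughout. In the authors' deposited table Pard6a was at 0.12 ± 0.26 with DMSO (adjusted p = 0.84) and 0.33 ± 0.25 with I-CBP112 (adjusted p = 0.56).

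Per kilobase of merged exons, Pard6g made up 55.3% of the summed PAR6 level with DMSO, 55.2% with I-CBP112, 66.4% with C646 and 66.3% with ethanol. With the length of the longest transcript instead, chosen after seeing the data, these shares were 50.5%, 50.4%, 62.2% and 62.3%. No test of the shares was made. Pard6a supplied 38.8% with DMSO, 39.0% with I-CBP112, 27.5% with C646 and 26.9% with ethanol, and Pard6b between 5.83% and 6.82%.

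**Figure D4:**
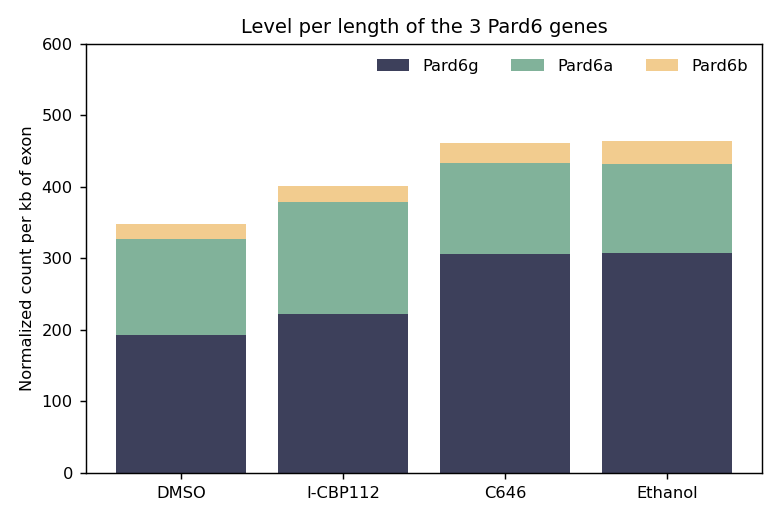
Normalised counts per kilobase of merged exons (vertical axis, from 0) of Pard6g, Pard6a and Pard6b, stacked, with DMSO, I-CBP112, C646 and ethanol; each bar is a group level of 2 libraries, with no error bar. The Pard6g part is 193 and 222 with DMSO and I-CBP112 and 306 and 308 with C646 and ethanol.

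The scaffold, the kinase and its substrate in this complex did not pass the test in any comparison. Pard3 (chromosome 8, 127063893 to 127612286, plus strand), the PAR3 scaffold that binds Insc, had 2163 normalised counts with DMSO, 1982 with I-CBP112, 2170 with C646 and 1976 with ethanol. In the authors' deposited table it lay at 0.13 ± 0.13 with DMSO (adjusted p = 0.58), 0.00 ± 0.13 with I-CBP112 (adjusted p = 0.99) and 0.13 ± 0.13 with C646 (adjusted p = 1). Prkci (chromosome 3, 30995747 to 31052959, plus strand), the atypical protein kinase C of the complex, had 3408 normalised counts with DMSO, 3640 with I-CBP112, 3883 with C646 and 3881 with ethanol. Its largest log2 fold change in the authors' deposited table was -0.19 ± 0.12 with DMSO (adjusted p = 0.34). Llgl1 (chromosome 11, 60699723 to 60714186, plus strand), a polarity protein that this kinase phosphorylates, had 1485 normalised counts with DMSO, 1577 with I-CBP112, 1573 with C646 and 1562 with ethanol. The intervals of its log2 fold changes, from -0.34 to 0.19 with DMSO and from -0.25 to 0.28 with I-CBP112, do not reach a 1.5-fold difference either way. Per length, over all libraries, Prkci was the highest of the 10 with 667 normalised counts per kilobase, followed by Numa1 with 618 and Gpsm2 with 583. Llgl1 had 319, Pard6g 257, Gpsm1 246, Pard3 143 and Pard6a 136, an order that changed with the length of the longest transcript, where Gpsm1 had 387, Llgl1 360 and Pard3 356, all above Pard6g.

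The treatments were also compared with each other, in 3 pairs, with standard errors rebuilt here and p-values adjusted over the 14830 tested genes. Between I-CBP112 and DMSO, 0 of the 10 members passed this Wald test, beside 6.97% of all tested genes. Of the 14830 tested genes 2571 had an unadjusted p below 0.05 there, and of the 10 members 1 had. That was Gpsm1, with a log2 difference of -0.37 ± 0.13 (unadjusted p = 0.00481, adjusted p = 0.0622). Between C646 and DMSO, 15.8% of all tested genes were called, and of the 9 members other than Insc 1 passed. It was Pard6g, beside 7.98% of all tested genes higher, at a log2 difference of 0.67 ± 0.17 (adjusted p = 0.00103, and adjusted p = 0.070 with the largest standard error the tables allow). Between I-CBP112 and C646, 9.80% of all tested genes were called and 0 of the 9. Pard6g differed there by -0.46 ± 0.17 (unadjusted p = 0.00542, adjusted p = 0.0541), just outside the threshold, and just inside it when fold changes were centred on the median gene (adjusted p = 0.046). Between I-CBP112 and DMSO, Pard6g differed by 0.20 ± 0.17 (adjusted p = 0.62), with an interval from -0.13 to 0.54.

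The G proteins, adaptors and motor subunits that act with these genes were read from a list of 31, of which 28 were tested. With DMSO 4 rose and 0 fell, beside 8.07% of all tested genes higher, with a list median of 0.06. With I-CBP112 2 rose and 1 fell, beside 4.65% of all tested genes higher, with a list median of 0.01. With C646 0 passed the DESeq2 test and 1 had an unadjusted p below 0.05, beside 111 of the 14830 tested genes. Among the 28 tested genes the largest change was in Dync1i1, an intermediate chain of dynein found mainly in neurons, which had 347 normalised counts with DMSO, 228 with I-CBP112, 102 with C646 and 91.2 with ethanol. The fold changes, log2 values of the authors' deposited table, were 1.93 ± 0.30 with DMSO (adjusted p = 1.27e-08) and 1.32 ± 0.31 with I-CBP112 (adjusted p = 0.000464). Of the 3 untested genes, Frmpd4, with a mean of 22.2 normalised counts, had lower values in the authors' deposited table, -2.63 ± 0.77 with DMSO and -2.15 ± 0.74 with I-CBP112, with no adjusted p. The broadly expressed intermediate chain Dync1i2, at -0.07 ± 0.12 with DMSO and 0.08 ± 0.12 with I-CBP112 in the authors' deposited table, did not pass (adjusted p = 0.80 and 0.84).

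Gnai1, a Gαi subunit that anchors LGN, had 2449 normalised counts with DMSO, 1440 with I-CBP112, 1522 with C646 and 1478 with ethanol. The DMSO cells alone stood apart, at 0.73 ± 0.13 in the authors' deposited table (adjusted p = 1.74e-06). The I-CBP112 and DMSO cells differed in Gnai1 by -0.77 ± 0.13 on the log2 scale (adjusted p = 1.3e-06). The other Gαi genes, Gnai2 and Gnai3, were at 0.01 ± 0.12 and -0.06 ± 0.13 with DMSO in the authors' deposited table, not past the test (adjusted p = 0.97 and 0.82). Frmpd1, which encodes a membrane protein that binds AGS3 and LGN, had 254 normalised counts with DMSO, 127 with I-CBP112, 148 with C646 and 216 with ethanol. It was at -0.77 ± 0.26 with I-CBP112 in the authors' deposited table (adjusted p = 0.0328, and 0.074 with no filter on low counts). The I-CBP112 and DMSO cells differed in Frmpd1 by -1.0 ± 0.26 (adjusted p = 0.00300, and 0.17 with the largest standard error). Smaller rises in the authors' deposited table were those of the dynein light chain Dynll2, at 0.47 ± 0.15 with DMSO (adjusted p = 0.0168), and of the membrane skeleton protein Epb41, at 0.50 ± 0.17 with I-CBP112 (adjusted p = 0.0411, 0.051 when centred on the median gene and 0.093 with no filter on low counts).

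Other genes of the PAR, Crumbs and Scribble polarity complexes and their regulators were read from a list of 27, of which 25 were tested. With DMSO 4 of 25 fell and 0 rose, beside 7.90% of all tested genes lower, with a list median of -0.05. With I-CBP112 4 of 25 fell and 0 rose, beside 5.25% of all tested genes lower, with a list median of -0.03. With C646 0 passed the DESeq2 test, and 0 had an unadjusted p below 0.05, beside 111 of the 14830 tested genes. Dlg2, a membrane scaffold related to fly Discs large, had 2 rows, of which the 1 with the higher mean was used. It had 167 normalised counts with DMSO, 233 with I-CBP112, 494 with C646 and 618 with ethanol. In log2 fold change, the authors' deposited table puts it at -1.89 ± 0.23 with DMSO (adjusted p = 2.52e-14) and -1.41 ± 0.23 with I-CBP112 (adjusted p = 3.79e-08). Its paralog Dlg4 was, by the authors' deposited table, at -0.62 ± 0.18 with DMSO (adjusted p = 0.00672) and -0.54 ± 0.18 with I-CBP112 (adjusted p = 0.0306, and 0.069 with no filter on low counts). Tiam1, a Rac exchange factor that binds PAR3, was at -1.05 ± 0.26 with DMSO in the authors' deposited table (adjusted p = 0.00110). The apical protein gene Crb2 was at -1.49 ± 0.50 with I-CBP112 in the authors' deposited table (adjusted p = 0.0321, and 0.073 with no filter on low counts).

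**Figure D5:**
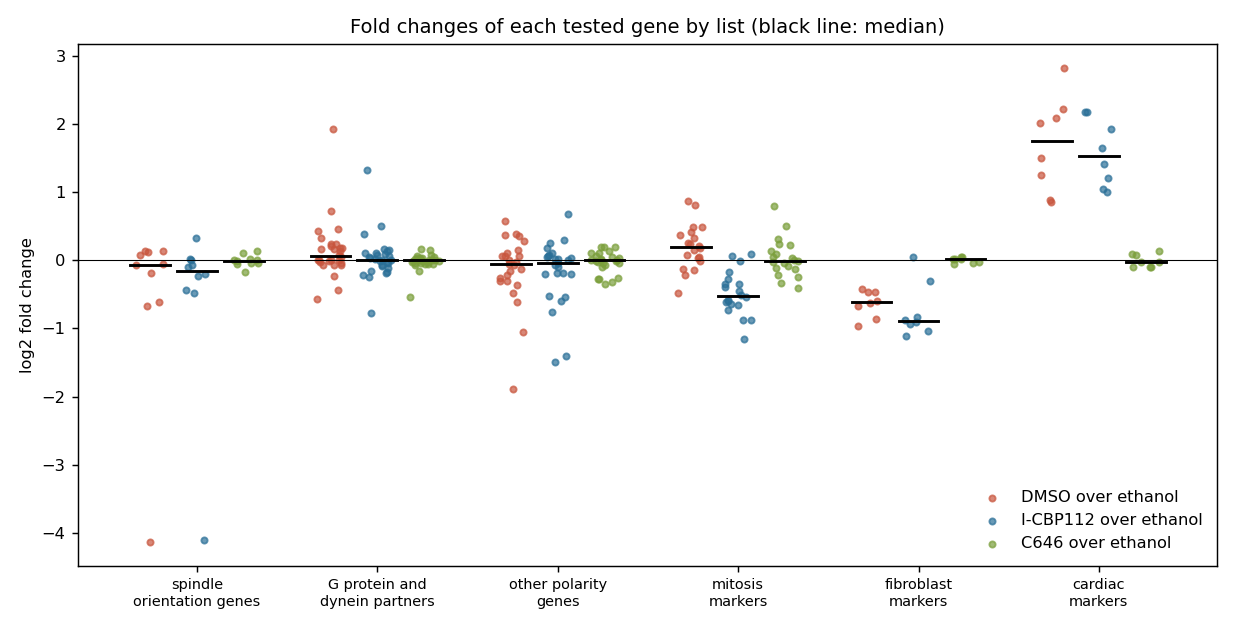
Log2 fold change over ethanol (vertical axis) of each tested gene, by list, with DMSO, I-CBP112 and C646; points are genes and black lines medians. The 2 spindle orientation points near -4 are Insc, and the medians of the 3 leftmost lists lie between -0.15 and 0.06, while those of the cardiac markers stand at 1.76 and 1.53 with DMSO and I-CBP112.

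Because spindle proteins are used in mitosis, 20 mitosis markers were set beside the members. With DMSO 0 of 20 passed the DESeq2 test, beside 16.0% of all tested genes, with a list median of 0.20 beside 0.03. An unadjusted p below 0.05 was found for 4 of the 20, beside 3894 of the 14830 tested genes. With I-CBP112 4 of 20 fell and 0 rose, beside 5.25% of all tested genes lower, with a list median of -0.53. With C646 0 passed the DESeq2 test, and 1 had an unadjusted p below 0.05, beside 111 of the 14830 tested genes. The spindle assembly factor Tpx2 had 457 normalised counts with DMSO, 197 with I-CBP112, 403 with C646 and 326 with ethanol, and the proliferation marker Mki67 had 779, 452, 750 and 704 in the same order. In the authors' deposited table Tpx2 was at -0.73 ± 0.20 (adjusted p = 0.00467) and Mki67 at -0.64 ± 0.18 (adjusted p = 0.00635) with I-CBP112. Between I-CBP112 and DMSO 7 of the 20 were lower and 0 higher, beside 2.66% of all tested genes lower. That count was 4 with groups scaled to equal totals, 3 with no filter on low counts and 1 with the largest standard error. Between these 2 treatments Insc differed by 0.04 ± 0.42 on the log2 scale. Its interval, -0.79 to 0.86, holds the median difference of the 20 markers, -0.66. The part of dividing cells in the Insc values was not tested.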

How the data were processed

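RNA was sequenced from 8 libraries in 4 groups, grouped by the labelled treatment. Per the submitters' processing notes, the authors used kallisto 0.43.1, GRCm38.p5 and DESeq2. The version of the authors' DESeq2 and their counting settings are not named in any source used here. Library preparation used a TruSeq RNA kit, per the labels' protocols. Each of the 3 deposited tables holds 1 comparison by the authors over 50600 genes. The signal in them is the authors' mean normalised count over the libraries, the same in each table and summing to about 38000000. The log2 fold change is the authors', as are the standard error and the Wald statistic, a score. Each p-value is the authors' deposited value, and the adjusted p covers 34250 genes for C646 but 14830 for DMSO and I-CBP112, whose lowest mean was 26.1. The median standard error was 0.185 on the log2 scale, and the depth of single libraries is unknown.

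The tables name no reference, and ethanol, the group with no table, was taken as it. Whether the libraries of a group came from separate cultures is not stated, so p-values measure the spread between these libraries only, which may be technical.

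Computed here with Python 3.11.15, pandas 2.3.3 and scipy 1.17.1 were the group levels, 1 dispersion per gene (its formula gave 98.9% to 99% of the deposited standard errors to within 1%), and a Wald test between treatments with Benjamini-Hochberg adjustment. The test was first run on simulated data, where it recovered 70% of 2-fold and 85% of 4-fold changes. Of its calls there, 6.63% were genes that had not been changed. The simulated standard errors came from the same dispersion formula, so the run could not show where that formula misses. For Insc the dispersion formula missed the deposited standard errors with DMSO and I-CBP112 by more than 1%. They differ, at 0.36 and 0.34, while its rebuilt levels, 18.2 and 18.7, are nearly equal. The intervals of Insc for single groups and its differences between treatments are therefore approximate. Members, lists and tests were chosen with earlier results of these data known. Genes were named by a rule: all members, up to 3 genes per list, comparison and direction with the largest change among those past the test, the 6 tested genes on each side of Insc, and the 5 nearest to it in pattern. Dync1i2, Gnai2 and Gnai3, as paralogs, and Frmpd4, Krt8, Krt18, Nes, Map2 and Tubb3 were named beyond the rule, after their values were seen. Positions and exon lengths are from GENCODE M21 (50376 identifiers matched), and promoter windows, found for 9 of the members, from RefSeq.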

Additional observations from a re-analysis of the deposited data

How the results depend on the processing

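Other scalings, filters and the largest standard error the tables allow gave 240 results for members, 1 per gene, comparison and setting. Of these, 236 stayed on their side of the threshold, in the same direction where they had been called. The exceptions all concern Pard6g. Most of the 240 had not been called to begin with, and most calls were those of Insc, which was chosen for its fold changes. The count of members past the test with I-CBP112 was 1 in place of 2 when groups were scaled to equal totals or with no filter on low counts. Between C646 and DMSO it was 1 in place of 2 with the largest standard error. Between I-CBP112 and C646 it was 2 in place of 1 when centred on the median gene. With p from a t distribution (4 degrees of freedom) the count was 0 in each comparison, for members and for the lists tested; over all genes 1 passed with DMSO and 0 with I-CBP112. With no filter on low counts, the I-CBP112 calls were 1 in place of 3 among G protein and dynein partners, 2 in place of 4 among other polarity genes and 0 in place of 2 among macrophage markers. Centring moved the comparisons with ethanol by at most 0.035 on the log2 scale. Between I-CBP112 and DMSO the largest standard error left 237 of 1034 calls over all genes, between C646 and DMSO 839 of 2349, and between I-CBP112 and C646 501 of 1454. Over all genes with DMSO, 1197 rose and 1171 fell, 1055 and 1223 scaled to equal totals, 972 and 1283 centred on the median gene. No paired analysis was possible because the tables hold no values of single libraries; leaving out each library was not run for the same reason.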
